A study of Mus musculus with 6 samples.

Results

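Cholesterol synthesis and sterol regulation genes were followed in primary mouse myoblasts with and without an active form of beta-catenin, which carries canonical Wnt signals into the nucleus. The set was defined by name: of 32 listed genes, 29 had a probe set that the platform annotation named, among 23279 named genes in all. Acat2, Soat1 and Nr1h2 were not analysed here. The 29 genes comprise 18 enzymes of cholesterol synthesis, 5 genes of the SREBP transcription factors and their regulators, 3 genes of sterol transport and 3 genes of the LXR receptor and efflux system. Expression was measured on 6 arrays, 3 from activated and 3 from control cultures, as deposited log2 values. The cells, of strain C57bl6N, came from limb muscle of mice carrying Pax7-CreERT2 (a tamoxifen-inducible Cre driven by Pax7, the transcription factor of muscle stem cells) and 1 beta-catenin allele with loxP sites around exon 3. Activated cultures received 4-OH tamoxifen in ethanol while differentiating, and control cultures of the same genotype received ethanol alone. The compound itself, or Cre activity, therefore cannot be told apart from the recombined allele. All cultures had been moved out of serum-rich growth medium into medium with 2% HS for 24 hours. The 3 cultures of a condition are labelled as independent, and the labels do not say how many animals gave them, so each p-value reflects culture-to-culture spread only.

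Cholesterol is made from acetyl-CoA through mevalonate, the prenyl diphosphates, squalene and lanosterol, and the prenyl diphosphates also supply protein prenylation, dolichol and ubiquinone. When membrane sterol is low, the escort protein SCAP carries SREBP to the Golgi, where proteases release the active factor, and when sterol is ample the INSIG proteins hold SCAP and SREBP in the endoplasmic reticulum. SREBP-2, the product of Srebf2, drives the synthesis genes, often together with the factor NF-Y, while LXR receptors sense oxysterols and switch on cholesterol efflux. In muscle the pathway is known for the sensitivity of fibres to statins, which block an early step of it.

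RefSeq promoter sequences (GRCm38.p6, from 250 bases before to 50 bases after an annotated start) were listed for 23 of the 29 genes and are shown for 4 of them. Hsd17b7 and Cyp51 are shown because they were the synthesis genes whose activated cultures all lay above the control cultures, Hmgcs1 because its promoter held the sterol regulatory element searched for, and Insig2 because 1 of its listed promoters held the TCF/LEF core. The last pair was chosen after the motifs were seen. Sequences run 5′ to 3′ on the gene's strand. Capitals mark the NF-Y box, spelled CCAAT on one strand and ATTGG on the other, in Hsd17b7, Cyp51 and Hmgcs1, the sterol regulatory element core TCACNCCAC in Hmgcs1 and the TCF/LEF core CTTTGA in Insig2.
Hsd17b7 (chr1:169969156-169969455, minus strand): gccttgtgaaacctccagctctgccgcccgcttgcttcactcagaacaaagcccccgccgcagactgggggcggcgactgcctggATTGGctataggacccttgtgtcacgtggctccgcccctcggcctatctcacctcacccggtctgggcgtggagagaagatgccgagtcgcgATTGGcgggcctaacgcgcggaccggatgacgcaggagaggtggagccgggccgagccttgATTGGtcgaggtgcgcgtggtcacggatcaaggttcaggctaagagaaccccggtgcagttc
Cyp51 (chr5:4104648-4104947, minus strand): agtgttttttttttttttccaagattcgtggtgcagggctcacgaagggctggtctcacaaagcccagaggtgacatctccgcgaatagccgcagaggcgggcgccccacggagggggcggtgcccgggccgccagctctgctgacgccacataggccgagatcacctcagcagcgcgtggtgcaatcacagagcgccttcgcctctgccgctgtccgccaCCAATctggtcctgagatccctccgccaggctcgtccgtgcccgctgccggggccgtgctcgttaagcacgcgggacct
Hmgcs1 (chr13:119690101-119690400, plus strand): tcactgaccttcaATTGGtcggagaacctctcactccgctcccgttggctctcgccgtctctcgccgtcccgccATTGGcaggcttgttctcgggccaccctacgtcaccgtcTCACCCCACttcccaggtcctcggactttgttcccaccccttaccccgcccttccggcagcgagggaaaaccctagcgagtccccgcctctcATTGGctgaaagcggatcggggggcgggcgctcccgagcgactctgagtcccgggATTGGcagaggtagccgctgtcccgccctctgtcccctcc
Insig2 (chr1:121327975-121328274, minus strand): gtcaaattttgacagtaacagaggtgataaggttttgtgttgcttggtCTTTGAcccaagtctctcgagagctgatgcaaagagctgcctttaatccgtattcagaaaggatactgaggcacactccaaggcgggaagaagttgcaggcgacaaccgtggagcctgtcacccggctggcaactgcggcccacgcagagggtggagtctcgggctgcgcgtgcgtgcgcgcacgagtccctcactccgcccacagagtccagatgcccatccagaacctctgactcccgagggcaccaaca

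Most promoters of the sterol genes held the NF-Y box, the motif of a factor already known to act with SREBP-2. Promoter sequence did not enter the choice of the gene set. With both strands searched, at least 1 CCAAT box stood in a listed promoter of 20 of the 23 genes (87.0%), against 42.3% of 17492 protein-coding genes in the same table. Counted by promoter entry, since some genes have several, the shares were 65.6% of 32 entries for the sterol genes and 37.4% of all 32851 entries, those of non-coding genes included. Hsd17b7 held 3 boxes, beginning 165, 73 and 12 bases before the start, and Cyp51 held 1, beginning 29 bases before it. The letters TCACNCCAC stood in 1 of the 23 genes (4.35%), Hmgcs1, beginning 137 bases before the start, against 1.41% of protein-coding genes. The TCF/LEF core, the binding core of the nuclear partners of beta-catenin, stood in Insig2, Npc2 and Pmvk, 13.0% of the 23 genes against 16.7% of protein-coding genes. None of these motifs overlapped another in the 4 promoters shown, and a match of letters is a description of the sequence only.

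Over all probe sets, array medians lay between 4.04 and 4.36 on the log2 scale and SDs between 1.72 and 2.12. Medians were 4.25, 4.04 and 4.16 in activated and 4.36, 4.16 and 4.33 in control replicates 1, 2 and 3. SDs were 1.88, 2.12 and 1.96 in activated and 1.72, 2.01 and 1.76 in control replicates 1, 2 and 3. At each number the activated array thus had the lower median and the wider spread. The part of this in the sterol gene differences was not tested. Among marker genes, Des, the muscle intermediate filament gene, was at 10.30, 11.31 and 10.94 in activated replicates 1, 2 and 3 and at 9.30, 9.81 and 8.77 in control replicates 1, 2 and 3. Adipoq, Ptprc and Pecam1, which define adipocytes, leukocytes and endothelium, reached at most 3.38 on any array (Adipoq, control replicate 1). Other genes of these marker lists were higher, with Cd68 at up to 6.66 in activated and 7.33 in control cultures and Lpl at up to 3.99 in activated and 7.87 in control cultures. The adipocyte regulator gene Pparg was at 5.57, 5.55 and 4.13 in activated and at 3.58, 4.04 and 3.78 in control replicates 1, 2 and 3, with no overlap, and the part of these cell types in the results was not tested. Replicate numbers were shared between the groups and were taken to pair the cultures, so a fit with the number as a block (hereafter the replicate block) is given wherever it moves a count.

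No sterol gene passed an adjusted p of 0.05 in activated against control cultures (0 of 29 genes in limma, with Hsd17b7 lowest at 0.457), and no gene of the 23279 did (0% called). At an unadjusted p under 0.05, 2 of the 29 were higher (6.9%, against 4.44% of all genes) and 0 were lower (against 3.42% of all genes). With the replicate block 7 were higher (24.1%, against 9.63% of all genes) and 0 lower (against 7.01%), and again none passed after adjustment (smallest adjusted p = 0.111), whereas 0.133% of all genes did. The 7 were Hmgcs1, Cyp51, Msmo1, Nsdhl, Hsd17b7, Ebp and Insig2. Among the brighter genes, those with a mean at or above the median of all gene means, the blocked share higher was 28% for 25 sterol genes against 18.1% for all 11640, a narrower gap, and 0 were lower (against 8.31%). After quantile normalization the blocked count was 6 of 29, against 7.05% of all genes. The fitted difference was above 0 for 19 of the 29 (65.5%, against 40.3% of all genes, and 48.2% of all genes when the arrays were quantile-normalized again, where 19 sterol genes were also above 0). Among brighter genes that share was 72% for the 25 sterol genes and 58.7% in all. The median difference of the 29 was 0.28 on the log2 scale, against -0.08 for all genes and 0.12 for the brighter genes. It was 0.15 with cyclic loess (-0.0032 for all genes), 0.19 after quantile normalization (-0.014 for all genes) and 0.40 with median centring (0.04 for all genes). As deposited, the median of the 29 was 0.08 without activated replicate 2, 0.09 without control replicate 3, and between 0.24 and 0.43 without any other single array.

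**Figure D1:**
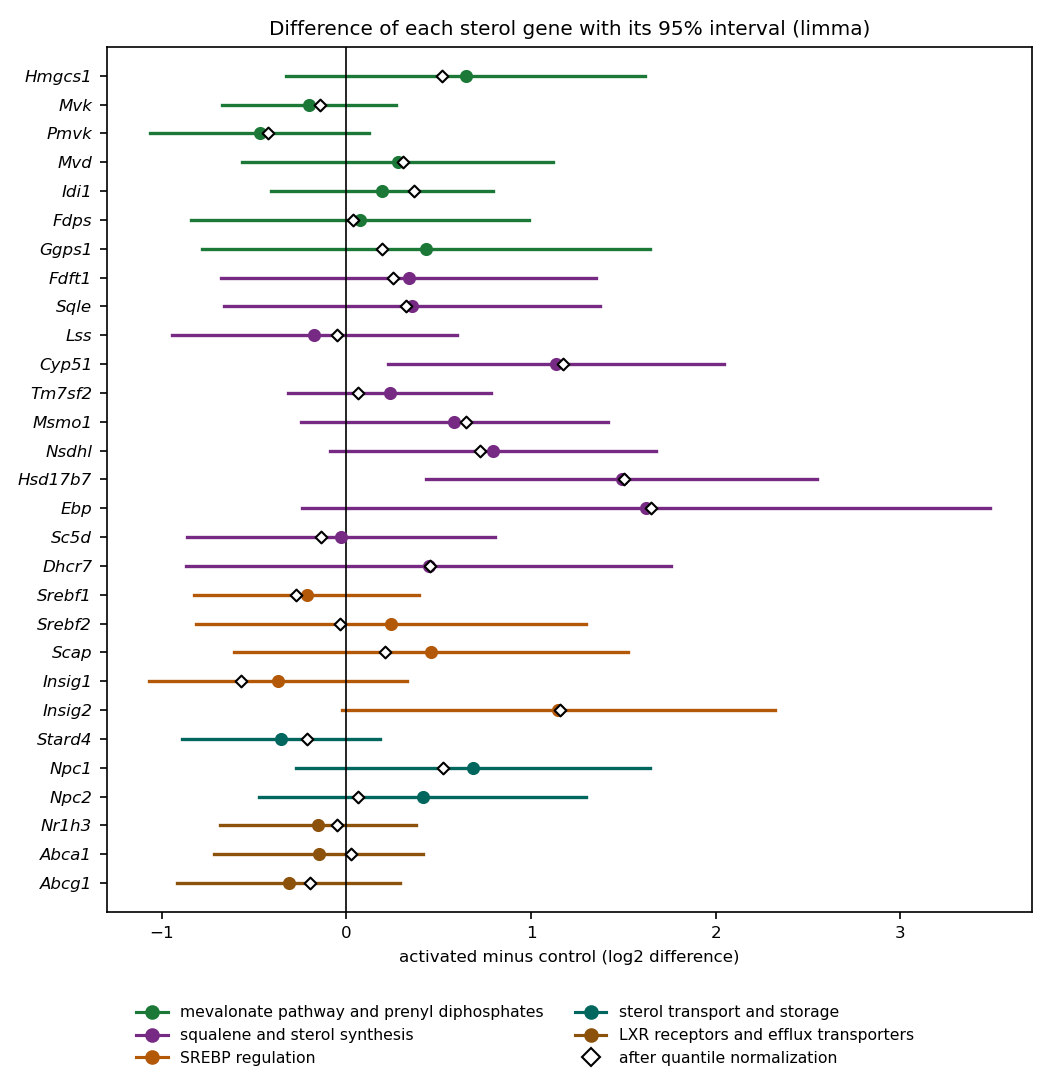
Log2 difference, activated minus control, of each of the 29 sterol genes (points, colours by role) with limma's 95% interval, and the same difference after quantile normalization (open diamonds). The intervals of Cyp51 (0.23 to 2.05) and Hsd17b7 (0.43 to 2.55) lie above 0, and the other 27 include it.

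Among the enzymes that turn lanosterol into cholesterol, differences ran from -0.03 (Sc5d) to 1.62 (Ebp). Hsd17b7, the keto-reductase of sterol demethylation, was at 5.12, 6.32 and 5.27 in activated replicates 1, 2 and 3 and at 4.45, 4.53 and 3.26 in control replicates 1, 2 and 3. All activated cultures lay above all control cultures, and control replicate 3 was the lowest. The group means of Hsd17b7 were 5.57 ± 0.65 in activated and 4.08 ± 0.71 in control cultures (SD, n = 3 each), a difference of 1.49 ± 0.45 (SE) or 2.81-fold (limma, adjusted p = 0.457, and 0.111 with the replicate block). Cyp51, the lanosterol demethylase, was at 4.67, 5.88 and 5.42 in activated and at 4.33, 4.61 and 3.62 in control replicates 1, 2 and 3. Here too the groups did not overlap, although activated replicate 1 exceeded control replicate 2 by little. The difference of Cyp51 was 1.14 ± 0.39 (SE), or 2.2-fold (limma, adjusted p = 0.53, and 0.175 with the block). Complete separation of this kind, activated above control, held for 6.9% of the sterol genes and 5.4% of all genes.

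Ebp, the sterol isomerase that follows demethylation, was at 5.49, 7.51 and 4.04 in activated and at 4.08, 4.56 and 3.52 in control replicates 1, 2 and 3. Its activated cultures spanned a wide range, and activated replicate 3 lay inside the control range, below control replicates 1 and 2. The difference of Ebp was 1.62 ± 0.80 (SE), the largest of the 29 (limma, adjusted p = 0.672), but 0.71 without activated replicate 2. Nsdhl, the decarboxylating dehydrogenase of sterol demethylation, was at 5.95, 6.55 and 5.07 in activated and at 5.21, 5.13 and 4.85 in control replicates 1, 2 and 3. Activated replicate 3 lay inside the control range and the other activated cultures above it. The difference of Nsdhl was 0.80 ± 0.38 (SE; adjusted p = 0.662 in limma), and 0.45 without activated replicate 2. Msmo1, the methylsterol oxidase that opens the same demethylation, was at 4.69, 5.47 and 4.24 in activated and at 4.42, 4.40 and 3.83 in control replicates 1, 2 and 3, a difference of 0.59 ± 0.36 (SE), and 0.25 without activated replicate 2. Its groups overlapped through activated replicate 3. In each of these 5 genes, grouped here after their values were seen, the activated culture was above the control culture of the same number in all 3 pairs, as was so for 10 of the 29 sterol genes (34.5%, against 16.6% of all genes). That share is not given for the brighter genes, where differences above 0 were commoner (58.7%, against 40.3% of all genes).

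**Figure D2:**
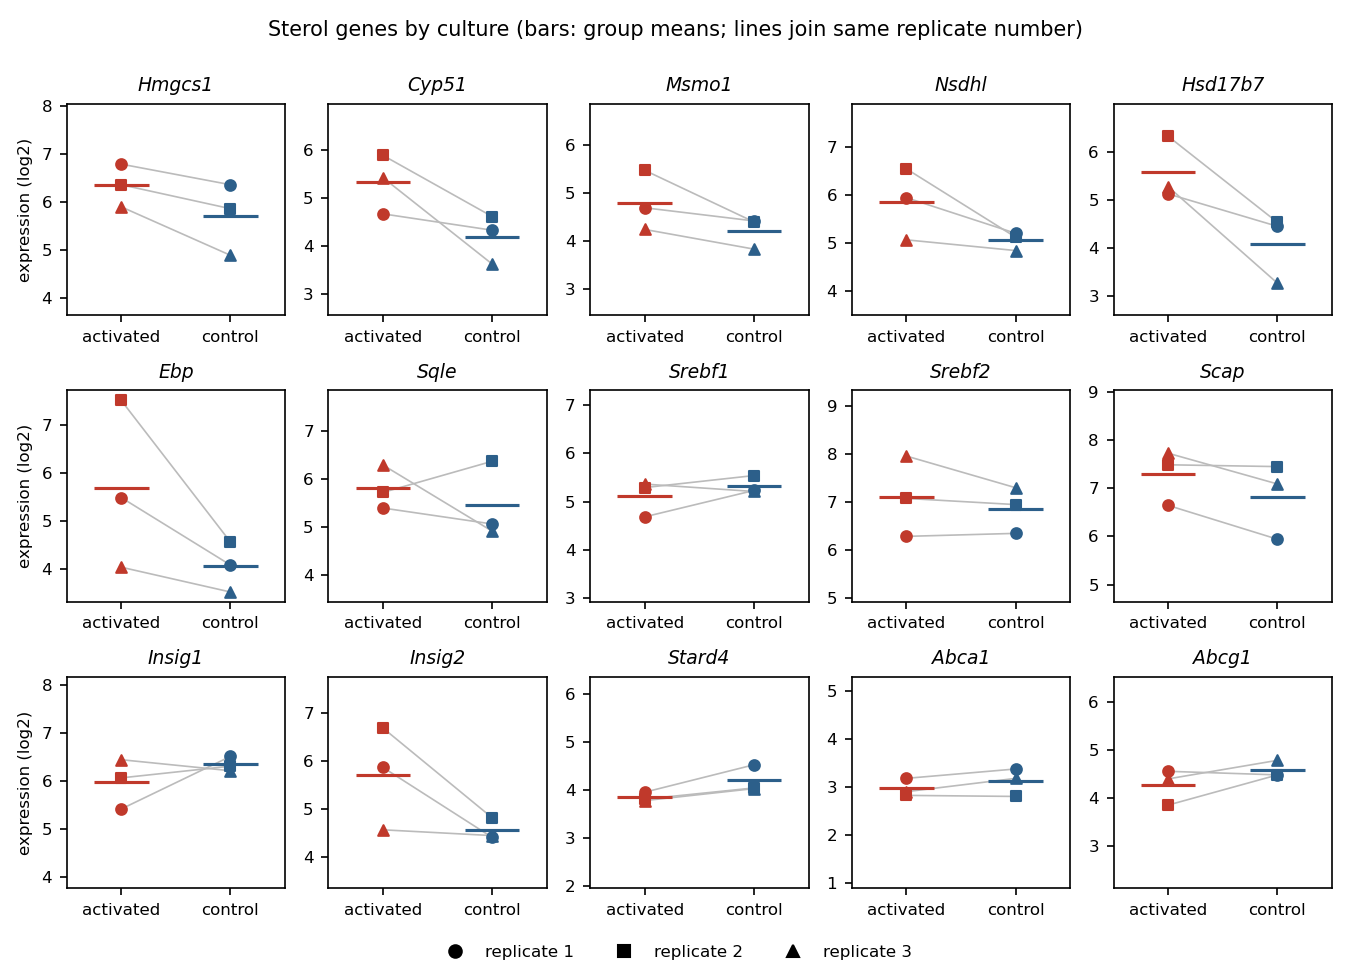
Log2 expression of 15 sterol genes in each culture, activated (red, left) and control (blue, right), with group means as bars and grey lines joining cultures of the same replicate number. Every panel spans the same number of log2 units, and only in Cyp51, Hsd17b7 and Stard4 do the groups not overlap.

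The remaining genes from squalene onward differed less. Sqle, the squalene epoxidase and a rate-controlling step, was at 5.39, 5.71 and 6.28 in activated and at 5.06, 6.36 and 4.91 in control replicates 1, 2 and 3. The highest value of Sqle was a control culture, and its difference of 0.35 ± 0.43 (SE) had an interval of -0.66 to 1.37. Leaving out control replicate 3 gave 0.086 and leaving out control replicate 2 gave 0.81. Dhcr7, the reductase that completes cholesterol, differed by 0.45 ± 0.56 (SE) and by -0.16 without activated replicate 2. Fdft1, the squalene synthase, differed by 0.34 (-0.020 without activated replicate 2), Tm7sf2, a sterol reductase that acts between Cyp51 and Msmo1, by 0.24 (0.083 without activated replicate 2), Sc5d, the lathosterol desaturase, by -0.03 and Lss, the lanosterol synthase, by -0.17 (0.14 without control replicate 3). Adjusted for all genes in limma, p for these 6 ran from 0.789 to 0.983. Over all 11 genes from squalene onward, 9 differences were above 0 and the median was 0.45 on the log2 scale (0.34, 1.07 and 0.41 within pairs 1, 2 and 3).

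In the earlier, mevalonate part of the pathway, differences ran from -0.47 (Pmvk) to 0.65 (Hmgcs1). Hmgcs1, the HMG-CoA synthase, was at 6.79, 6.36 and 5.90 in activated and at 6.36, 5.86 and 4.89 in control replicates 1, 2 and 3. The groups overlapped, while each activated culture stood above the control culture of its own number, by 0.43, 0.50 and 1.01 in pairs 1, 2 and 3. The difference of Hmgcs1 was 0.65 ± 0.42 (SE; adjusted p = 0.729 in limma and 0.227 with the block), and 0.24 without control replicate 3. Ggps1, the geranylgeranyl diphosphate synthase, differed by 0.43 and by -0.04 without control replicate 3. Mvd, the mevalonate diphosphate decarboxylase, differed by 0.28 (-0.01 without activated replicate 2), Idi1, the isopentenyl diphosphate isomerase, by 0.19 (0.038 without activated replicate 1), and Fdps, the farnesyl diphosphate synthase, by 0.07 (-0.18 without activated replicate 2). The mevalonate kinase gene Mvk and the phosphomevalonate kinase gene Pmvk differed by -0.20 ± 0.20 and -0.47 ± 0.25 (SE), and both were lower in activated than in control cultures in all 3 pairs, as were 3 of the 29 sterol genes (10.3%) and 25% of all genes. Here too the share among the brighter genes is not given. The median of the 7 genes was 0.19, with -0.38, 0.50 and 0.19 within pairs 1, 2 and 3, so pair 1 had the opposite sign.

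**Figure D3:**
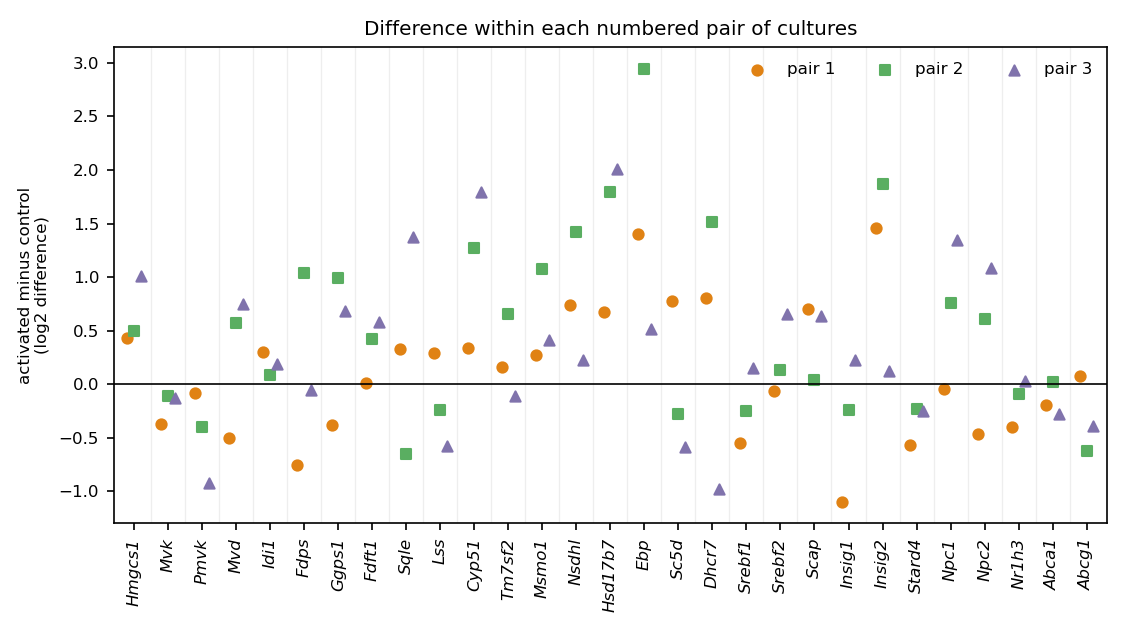
Log2 difference, activated minus control, within pairs 1, 2 and 3 for each of the 29 sterol genes in pathway order. Cyp51, Msmo1, Nsdhl, Hsd17b7 and Ebp are above 0 in every pair, while Fdps, Sqle, Dhcr7 and Insig1 have pairs on both sides of 0.

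The SREBP genes and their regulators did not move as a group. Insig2, one of the 2 INSIG retention proteins, was at 5.86, 6.68 and 4.57 in activated and at 4.41, 4.82 and 4.45 in control replicates 1, 2 and 3. Activated replicates 1 and 2 stood above all control cultures, and activated replicate 3 lay among them. The difference of Insig2 was 1.15 ± 0.50 (SE), or 2.22-fold (limma, adjusted p = 0.634, and 0.216 with the block), and 0.66 without activated replicate 2. When pair 3 was left out, with the block on the remaining pairs, Insig2 (adjusted p = 0.0307) and Ebp (0.0417) passed limma's test. They were 2 of the 29 sterol genes, while 501 of all 23279 genes passed. Pair 3 was where both genes differed least, by 0.12 for Insig2 (1.46 and 1.87 in pairs 1 and 2) and 0.52 for Ebp (1.40 and 2.95). No gene passed in the same fit without pair 1 (adjusted p = 0.498 for Insig2 and 0.42 for Ebp) or without pair 2 (0.493 for Insig2 and 0.36 for Ebp). Each of these fits held only 2 pairs, which leaves little spread of a gene's own to estimate. Their p-values therefore lean heavily on the variance that limma shares across genes. Insig1, the INSIG gene that SREBP itself induces, was at 5.41, 6.06 and 6.44 in activated and at 6.51, 6.31 and 6.21 in control replicates 1, 2 and 3. Activated replicate 1 was the lowest, and the difference was -0.37 ± 0.30 (SE; adjusted p = 0.758), or -0.09 without activated replicate 1.

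Srebf2, the gene of the main cholesterol regulator, was at 6.28, 7.07 and 7.95 in activated and at 6.35, 6.94 and 7.30 in control replicates 1, 2 and 3. The groups overlapped, and the difference of 0.24 ± 0.45 (SE) was -0.03 with quantile-normalized arrays and -0.01 with cyclic loess. Srebf1, whose product mainly drives fatty acid synthesis, was at 4.68, 5.29 and 5.36 in activated and at 5.23, 5.54 and 5.21 in control replicates 1, 2 and 3, a difference of -0.22 ± 0.26 (SE). Activated replicate 1 was the lowest of the 6, and without it the difference was -8.0e-05. Scap, the escort protein gene, was at 6.65, 7.49 and 7.73 in activated and at 5.94, 7.45 and 7.09 in control replicates 1, 2 and 3, a difference of 0.46 ± 0.46 (SE) that was 0.02 without control replicate 1. The intervals of these 3 genes, spanning -0.83 to 1.53, each included 0.

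Among the transport genes, Stard4, a cytosolic sterol carrier and SREBP target, was at 3.96, 3.81 and 3.78 in activated and at 4.53, 4.04 and 4.03 in control replicates 1, 2 and 3. All activated cultures lay below all control cultures, the only such case among the 29 (3.45%, against 7.4% of all genes), and the groups overlapped after median centring, after quantile normalization and after cyclic loess. The difference of Stard4 was -0.35 ± 0.23 (SE; adjusted p = 0.734 in limma), and -0.19 without control replicate 1. Npc1 and Npc2, which hand cholesterol out of the lysosome, differed by 0.69 ± 0.41 and 0.41 ± 0.38 (SE). Npc1 was at 0.24 without control replicate 3, and Npc2 at 0.06 after quantile normalization and 0.17 without activated replicate 2.

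The LXR and efflux genes all had differences below 0, none of them past the test. Of all 23279 genes, 13896 were also below 0. Abca1, the transporter that loads cholesterol onto apolipoprotein A-I, was at 3.18, 2.82 and 2.90 in activated and at 3.37, 2.80 and 3.17 in control replicates 1, 2 and 3. These values were low, with the mean of Abca1 at percentile 24.7 of all genes, and they overlapped. The difference of -0.15 ± 0.24 (SE) turned to 0.02 after quantile normalization and after cyclic loess. It was -0.023 after median centring and -0.022 without control replicate 1. Abcg1, a transporter that passes cholesterol to high-density lipoprotein, was at 4.55, 3.85 and 4.39 in activated and at 4.47, 4.47 and 4.78 in control replicates 1, 2 and 3. Its difference was -0.31 ± 0.26 (SE), and -0.10 without activated replicate 2. Nr1h3, the gene of the receptor LXR alpha, differed by -0.15 ± 0.23 (SE), by -0.027 after median centring and by 0.0034 without control replicate 1. In limma, adjusted p ran from 0.762 to 0.861 for these 3 genes.

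Single cultures weighed on the set. Activated replicate 2 was the highest of the 6 arrays for 13 of the 29 sterol genes (44.8%), against 16.2% of all genes and 28.3% of the brighter genes. Control replicate 3 was the lowest for 12 (41.4%), against 19.5% of all genes and 32.1% of the brighter genes. Muscle and cell cycle markers differed between the same groups. Summed on the linear scale, 14 muscle genes ran from 13253 to 20878 in activated and from 4797 to 9670 in control cultures, with 12 of 14 differences above 0 and a median log2 difference of 1.17. The sum of 13 cell cycle genes ran from 1004 to 1834 in activated and from 2158 to 4481 in control cultures, with all 13 differences below 0 and a median of -1.24. The part of these shifts in the sterol gene differences was not tested. Sums overlapped between the groups for fibroblast markers (156 to 296 in activated, 217 to 295 in control cultures), adipocyte markers (105 to 163 in activated, 114 to 328 in control cultures) and leukocyte markers (94.0 to 161 in activated, 94.8 to 248 in control cultures). They also overlapped for Schwann and glial markers (110 to 162 in activated, 136 to 240 in control cultures), but not for endothelial markers (73.7 to 88.0 in activated, 93.2 to 102 in control cultures). Linear sums are weighted to the brightest genes, such as Cd68 and Pmp22, at up to 7.33 and 7.39 in control cultures. Differences were below 0 for 7 of 9 fibroblast, 6 of 9 adipocyte and 6 of 7 leukocyte genes. So were 6 of 6 Schwann and glial and 6 of 8 endothelial genes, and 13896 of all 23279 genes. The endothelial genes had means between percentile 9.98 (Emcn) and 55.1 (Egfl7) of all genes. Their median difference of -0.31 was -0.14 after quantile normalization. The part of the lower all-gene median (-0.08) in these marker differences was not tested. In such cultures fewer cells of a type and less RNA per cell cannot be told apart.

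Neighbouring pathways were described from 6 lists with 73 measured genes, of which 0 passed in either direction (limma, adjusted p at least 0.318, and 0.0703 with the block). At an unadjusted p under 0.05, 5 were higher and 1 lower (4.44% and 3.42% of all genes). With the block 14 were higher and 2 lower, or 19.2% and 2.74%, against 9.63% and 7.01% of all genes and 18.1% and 8.31% of the brighter genes. In 9 of the 73 all activated lay above all control cultures and in 2 below, against 5.4% and 7.4% of all genes. Among 15 genes of lysosomal and intracellular sterol transport, 12 differences were above 0 and the median was 0.33. Nceh1, a cholesterol ester hydrolase, was at 6.14, 6.60 and 5.88 in activated and at 5.03, 5.27 and 4.87 in control replicates 1, 2 and 3, a difference of 1.15 ± 0.26 (SE; adjusted p = 0.318). The groups did not overlap, nor did they for the oxysterol-binding protein gene Osbpl8, which differed by 1.17 ± 0.37 (SE). Osbp, the founding oxysterol-binding protein gene, differed by 0.63 ± 0.27 (SE).

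The isoprenoid branch, which uses the prenyl diphosphates, had 10 of 13 differences above 0 and a median of 0.27. Fnta, the alpha subunit shared by protein farnesyl and geranylgeranyl transferases, was at 5.50, 6.70 and 5.48 in activated and at 4.84, 4.89 and 3.82 in control replicates 1, 2 and 3, a difference of 1.38 ± 0.44 (SE; adjusted p = 0.482). All activated cultures lay above all control cultures. The partner subunit genes Fntb and Pggt1b differed by 0.54 and 0.39, each also without overlap. These genes were named for the smallest p of the list, which favours groups apart, and 5.4% of all genes were apart in this direction. Rabggta and Rabggtb, the Rab geranylgeranyl transferase genes of the list, differed by -0.25 and 0.24 with overlap.

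Fatty acid synthesis and desaturation genes went both ways, with 10 differences above and 7 below 0. Elovl6, a fatty acid elongase, was at 4.91, 4.10 and 4.93 in activated and at 6.74, 5.49 and 6.11 in control replicates 1, 2 and 3, a difference of -1.46 ± 0.38 (SE; adjusted p = 0.387). Acss2, the cytosolic acetyl-CoA synthetase, was at 4.61, 5.39 and 4.23 in activated and at 3.82, 3.71 and 3.19 in control replicates 1, 2 and 3, a difference of 1.17 ± 0.34 (SE). Neither gene had overlapping groups, and Mid1ip1, an activator of acetyl-CoA carboxylase, differed by 1.14 ± 0.37 (SE) in the direction of Acss2. Of 7 other sterol synthesis and uptake genes 5 were above 0, led by the lipoprotein receptor Scarb1 (1.00 ± 0.44, SE), with Vldlr at 0.56 and Erg28 at -0.35. Of 8 genes of SREBP processing and reductase turnover 5 were above 0. In that list Erlin2, an endoplasmic reticulum protein of reductase turnover, differed by 0.50, Mbtps2, one of the proteases that release SREBP, by 0.57 and the other protease gene, Mbtps1, by -0.49. The 13 LXR target and oxysterol genes had a median of 0.00, with Abcg8 at -0.45, Cyp7b1 at -0.28 and Lpcat3 at 0.32.

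**Figure D4:**
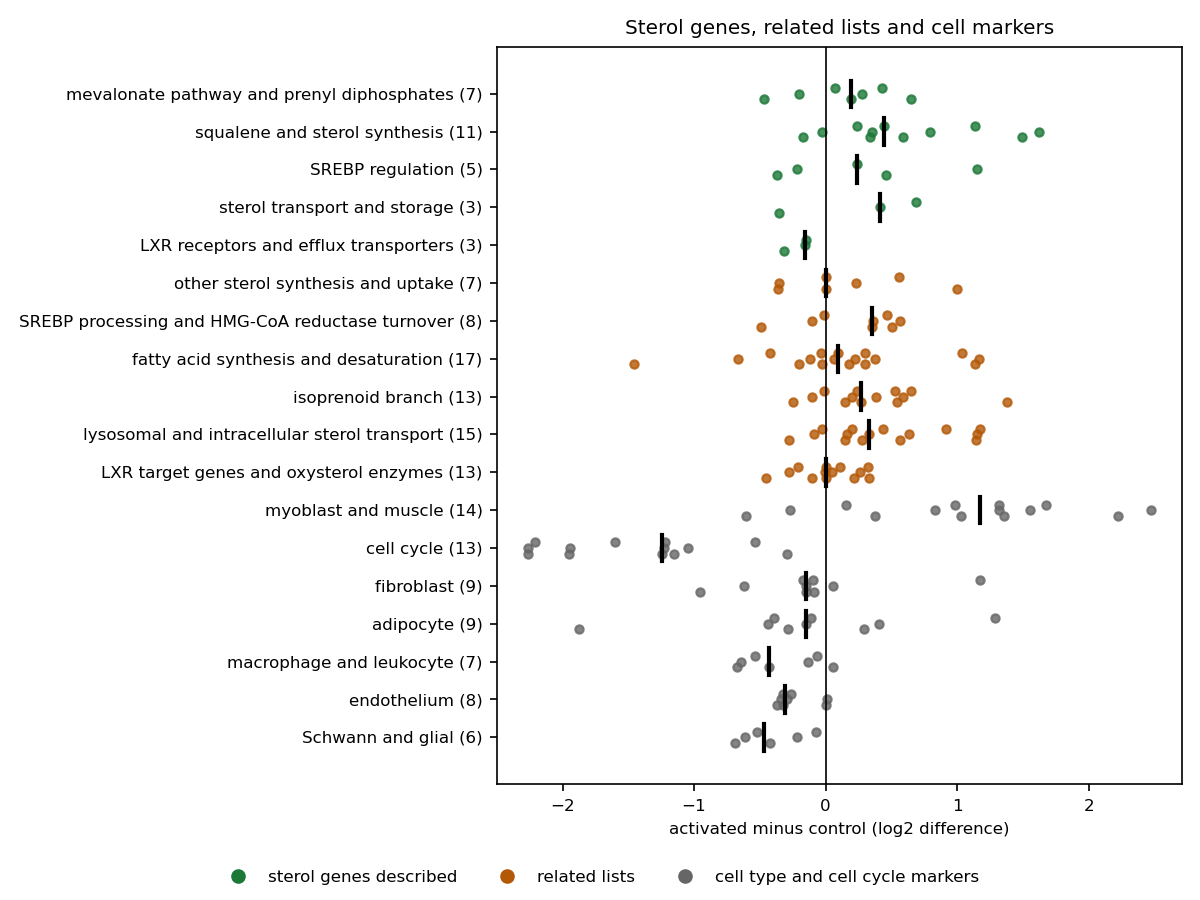
Log2 difference, activated minus control, of each measured gene in the 5 role groups of the sterol genes (green), the 6 related lists (brown) and 7 marker lists (grey), with the number of genes in brackets and the median as a black bar. The muscle list has its median at 1.17 and the cell cycle list at -1.24, and the sterol role groups have medians between -0.15 and 0.45, of which that of SREBP regulation (0.24) turned to -0.03 with quantile normalization and -0.01 with cyclic loess.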

How the data were processed

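Total RNA was labelled with biotin for Affymetrix whole-transcript arrays, per the labels' protocols. The authors deposited values on the log2 scale, and the submitters' processing notes name RMA and Partek without role or version. Their settings, the genome build and any detection call are not given in the sources cited. Of 24479 probe sets, 23281 had exactly 1 symbol in the platform annotation, 0 several and 1198 none. For 2 symbols with several probe sets the brightest was used, which left 23279 genes. limma 3.58.1 in R 4.3.3 fitted group as the only term, using moderated tests, two-sided, with Benjamini-Hochberg adjustment over all 23279 genes. No filter and no pseudocount was applied, and the code was tested on simulated data. There 8% of planted 2-fold, 78% of 4-fold and 98% of 8-fold changes passed adjustment, with 50 genes planted at each size. In addition 8 unchanged genes passed. The largest sterol difference, that of Ebp, was 3.08-fold, and changes near 2-fold would mostly go uncalled in such data. Signed differences are activated minus control on the log2 scale. The number of arrays limits the precision.

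Across genes, departures of same-numbered arrays from their group means correlated at 0.38, 0.49 and 0.45 for numbers 1, 2 and 3, all above the 0.1 required, so the numbers in the titles were taken to pair the cultures. Array spread differs in a similar order and can add to this. Alternatives were the replicate block, median centring, quantile normalization, cyclic loess, a brightness filter, an intensity trend and leaving out arrays or pairs. Members and lists were chosen with earlier results of these data known. The genes given array by array were those with groups apart or an unadjusted p under 0.05 with or without the block, plus 9 fixed by name. From each related list the 3 genes with the smallest p are named, and Nceh1, Fnta, Elovl6 and Acss2 among them, chosen after their values were seen, are given array by array. Promoters were read from a RefSeq table of build GRCm38.p6.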

Additional observations from a re-analysis of the deposited data

How the results depend on the processing

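No sterol gene passed the adjusted test under any normalization, filter, prior or single-array omission tried, nor with the replicate block on all 6 arrays. With the replicate block the number of sterol genes higher at an unadjusted p under 0.05 was 7 (24.1%, against 9.63% of all genes). It was 2 without the block (6.9%, against 4.44%) and 6 after quantile normalization with the block (20.7%, against 7.05%). It was 7, 3 and 6 with the block when pair 1, 2 or 3 was left out. The block took the count of all genes past adjustment to 31, which was 0 with quantile normalization and the block, and 0 with the block without pair 1 or without pair 2. With the block and without pair 3, 501 of all 23279 genes and 2 of the 29 sterol genes passed, in a fit on only 2 pairs. On all 6 arrays the block changed no other call among the sterol genes. Among the related genes, those at an unadjusted p under 0.05 went from 5 to 14 higher and from 1 to 2 lower. Of the marker genes, only the muscle marker Actn2 passed adjustment with the block (limma, adjusted p = 0.0434). The median sterol difference, 0.28 as deposited, was 0.15 with cyclic loess, 0.19 with quantile normalization and 0.40 with median centring. Without single arrays, unblocked, 0 to 28 genes passed, the sterol genes at an unadjusted p under 0.05 numbered 1 to 5 higher and 0 to 1 lower, those with all activated above all control arrays 2 to 8, and those with the reverse 1 to 3. Fewer arrays make such separation easier by construction. For omitted arrays or pairs, the share of all genes at an unadjusted p or without overlap is not given here. Those sterol counts therefore cannot be set against the whole table. The reverse count was 0 after median centring, quantile normalization, cyclic loess or the brightness filter, which leaves out Idi1, Lss, Stard4 and Abca1. Of the differences below the threshold, the sign turned for Sc5d (0.099) with median centring, for Srebf2 (-0.032) and Abca1 (0.024) with quantile normalization, blocked or not, and for Srebf2 (-0.014) and Abca1 (0.024) with cyclic loess. With the block it turned without pair 2 for Fdps (-0.40), Sc5d (0.097) and Dhcr7 (-0.087), and without pair 3 for Sqle (-0.16), Lss (0.028) and Sc5d (0.25). Without single arrays the differences that changed sign ran from -0.012 to 0.61 for Mvd, -0.18 to 0.45 for Fdps, -0.039 to 0.91 for Ggps1, -0.020 to 0.66 for Fdft1, -0.34 to 0.14 for Lss, -0.31 to 0.24 for Sc5d, -0.16 to 1.03 for Dhcr7, -0.18 to 0.65 for Srebf2 and -0.23 to 0.0034 for Nr1h3. The cause of these turns was not tested.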
